A study of Mus musculus with 12 samples.

Results

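The cells described here are immature granule neurons of the mouse dentate gyrus at P7, taken by a rule on single-cell counts of unique molecular identifiers (UMIs). A cell was a member when it held at least 1 UMI of *Prox1*, at least 1 UMI of each of 3 or more of the 8 genes *Gal*, *Nrgn*, *Camk2b*, *Grin2b*, *Sema5a*, *Thsd7a*, *Rbfox1* and *Kitl*, and no UMI of *Eomes*, *Gad1* or *Gad2*. The members were thus chosen by measured values of these 12 genes, whose levels are given as descriptions. The rule found 1789 member cells among the 24213 cells that held over 500 genes and had a mitochondrial part under 15% of UMIs.

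Granule neurons are the principal excitatory neurons of the dentate gyrus. They arise after birth from radial glia through *Eomes*-expressing intermediate progenitors and neuroblasts, turn on *Prox1*, the homeobox factor of the granule lineage, and pass through a stage marked by *Calb2* before they express *Calb1*. *Larp7* encodes the protein that binds and stabilises 7SK RNA, the scaffold on which the HEXIM proteins hold the elongation kinase P-TEFb, made of CDK9 and a cyclin T, in an inactive state.

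The study asked how loss of *Larp7* affects neurogenesis in the dentate gyrus. At P7 it measured 1 library of each genotype, each from 3 to 4 gyri of littermates combined. The wild-type library came from mice with floxed *Larp7* used as wild-type, and the 2 mutant libraries from *Larp7* f/f mice that carried either nestin-Cre or Emx1-Cre. The nestin-Cre transgene acts in neural progenitors throughout the nervous system and in all cells that descend from them, and Emx1-Cre in the dorsal telencephalon, which forms the hippocampus. Both delete exon 9 of *Larp7*, which loxP sites flank. The 3′ tags counted here lie outside the deleted exon and so do not check the deletion directly. For both mutant libraries the sample title and the genotype entry name different Cre lines, and the title was followed. The cell numbers in the methods go the way of the titles, since the number for nestin-Cre is larger than that of all barcodes in the library titled Emx1. With 1 library per genotype, no difference between genotypes could be tested against the spread between animals. Intervals of UMIs (exact Poisson), of their ratios and of shares (exact binomial) are 95% intervals for counting error only. Those of medians come from order statistics and reflect the spread among the cells or genes they are taken over.

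In the wild-type library 28918491 UMIs were spread over 12876 barcodes, in the nestin-Cre library 26689878 over 7177 and in the Emx1-Cre library 28537738 over 6821. The filter kept 10997, 6685 and 6531 cells, with a median of 1782, 3644 and 3873 UMIs. Wild-type cells were thus the shallowest by far. Between 11 and 23 barcodes were shared by any pair of libraries, none of them a member in both. Expression is given as CPM, the UMIs of a gene summed over the member cells of a library and scaled to 1000000 UMIs of those cells. The members held 668911 UMIs in the wild-type library, 3896907 in the nestin-Cre library and 2718902 in the Emx1-Cre library, so that 1 UMI stood for 1.49, 0.257 and 0.368 CPM. Both mutant libraries are compared with the same wild-type library, and the smallest sum of the 3 sets the precision of both comparisons.

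*Larp7* (chr3:127536714-127553349, minus strand, GRCm38) was at 50.8 CPM (interval 35.2 to 71.0, 34 UMIs) in wild-type members, at 11.0 (7.99 to 14.9) in nestin-Cre members and at 11.4 (7.75 to 16.2) in Emx1-Cre members. The intervals of both mutant libraries lay below that of wild-type, with log2 ratios of -2.20 and -2.16. In microglia, which arise outside the neural lineage, *Larp7* was at 57.0 (47.1 to 68.4), 34.6 (26.7 to 44.1) and 36.8 (26.9 to 49.3) CPM. There too the nestin-Cre interval lay below that of wild-type, while that of Emx1-Cre overlapped it. In endothelium *Larp7* was at 47.7 (35.3 to 63.1), 49.4 (27.7 to 81.5) and 39.3 (29.5 to 51.4), with overlapping intervals. By *Larp7* the mutant libraries differed from wild-type, but the 2 Cre lines could not be told from each other.

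In the wild-type library 190 of 10997 cells were members, 1.73% (1.49 to 1.99). The nestin-Cre library had 967 of 6685, 14.5% (13.6 to 15.3), and the Emx1-Cre library 632 of 6531, 9.68% (8.97 to 10.4). Members were a larger share of both mutant libraries, and of the cells with *Prox1* they made up 4.87%, 24.2% and 16.8%. The rule reads more markers in deeper cells. When each cell was thinned to 1500 UMIs, which left out 4785, 597 and 439 shallower cells, the rule found 46 of 6212 cells (0.741%, 0.543 to 0.987), 347 of 6088 (5.70%, 5.13 to 6.31) and 155 of 6092 (2.54%, 2.16 to 2.97). The order of the libraries was the same at equal depth. Among unthinned cells with 2000 to 6000 UMIs the shares were 3.70%, 17.0% and 11.1%.

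UMIs of *Prox1* and the markers were also read in cells of other types. Whether free RNA in droplets or doublets brought them there was not tested. *Prox1* was read in 25.6% of 794 microglia of the wild-type library (median 1971 UMIs), in 25.8% of 515 in the nestin-Cre library (3267) and in 32.0% of 300 in the Emx1-Cre library (3464.5). The full rule was met by 4, 17 and 8 of these microglia, which is 0.504%, 3.30% and 2.67%. In endothelium it was met by 0 of 183 cells of the wild-type library (upper bound 2.00%), 0 of 43 of the nestin-Cre library (upper bound 8.22%) and 7 of 169 of the Emx1-Cre library (4.14%). The share of members over all cells lay above the share in microglia in each library, at median depths of 1782, 3644 and 3873 UMIs over all cells. Among microglia, too, a larger share met the rule in the mutant libraries. The nestin-Cre interval (1.93% to 5.23%) lay above that of wild-type (0.137% to 1.28%), and the Emx1-Cre interval (1.16% to 5.19%) overlapped it. The share of microglia at equal depth was not computed.

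**Figure D1:**
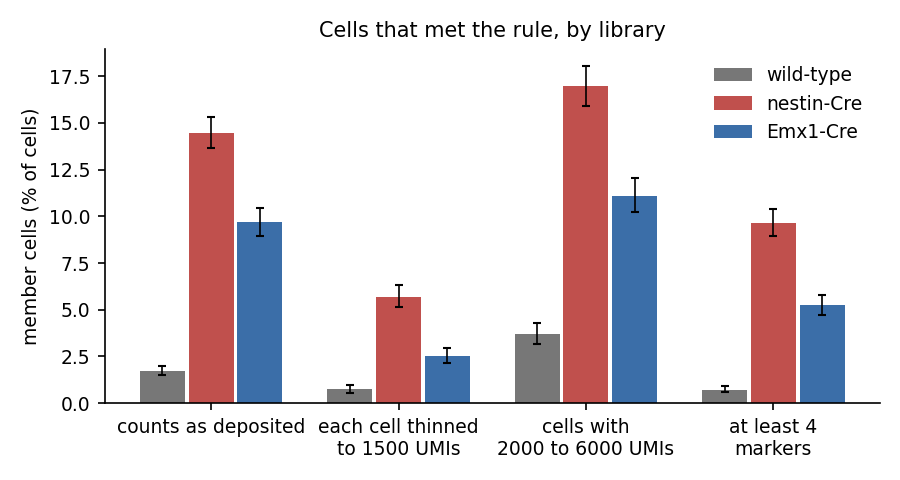
Share of cells that met the rule in each library, in percent of the cells considered, for the counts as deposited, after thinning, within a range of depth and with a stricter marker number. Bars are shares of 1 library each and lines are exact 95% binomial intervals; the wild-type bar is the lowest of the 3 in every group, at 1.73%, 0.741%, 3.70% and 0.727%.

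Levels of the 8 markers without a limit on their number restate the shares, as these are the genes of the rule. Over all cells with *Prox1* and without *Eomes*, *Gad1* and *Gad2* (2666, 2641 and 2334 cells), their summed level was 287 CPM (275 to 300) in the wild-type library, 800 (782 to 817) in the nestin-Cre library and 527 (513 to 542) in the Emx1-Cre library. *Gal* differed most among the 8, at 14.9, 79.5 and 49.4 CPM. All 8 genes stood in the same order, with nestin-Cre highest and wild-type lowest. More cells at this stage and a higher level of the markers per cell cannot be told apart from these values.

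The number of markers per member differed between the libraries. In the wild-type library 57.9% of members held exactly 3 markers, against 33.3% in the nestin-Cre library and 45.9% in the Emx1-Cre library. Cells just inside the limit, with 3 markers, numbered 110, 322 and 290, and cells just outside it, with 2, numbered 197, 369 and 323. Cells with 2 markers had *Prox1* at 758, 850 and 865 CPM and *Neurod1* at 1087, 1788 and 1780 CPM, and cells with 3 markers had *Prox1* at 924, 986 and 957 and *Neurod1* at 1276, 2046 and 1977. *Slc1a3*, a glial glutamate transporter, was at 475, 505 and 449 CPM just outside the limit and at 347, 316 and 269 just inside. The limit thus cuts a range and not a separate group of cells.

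Within members, the rule genes had these levels, given as descriptions. *Prox1* was at 963, 1127 and 1070 CPM in the wild-type, nestin-Cre and Emx1-Cre libraries. *Sema5a*, a guidance protein, was at 262, 282 and 209 CPM, and *Grin2b*, an NMDA receptor subunit, at 283, 253 and 213. *Camk2b*, a calcium-dependent kinase, was at 239, 245 and 202 CPM. *Rbfox1*, a splicing regulator, was at 214, 265 and 206. *Thsd7a* was at 121, 159 and 127 CPM, and *Kitl*, the ligand of the receptor Kit, at 123, 141 and 134. The lowest of the 8 in wild-type members were *Nrgn*, a calmodulin-binding protein of the postsynapse, at 100, 149 and 111 CPM, and *Gal*, the neuropeptide galanin, at 89.7, 177 and 140. *Eomes*, *Gad1* and *Gad2* were at 0 by the rule.

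Genes the rule did not use also set the members apart from the other cells of their library. Among the 15 genes most enriched in members, 7 were rule genes, and *Crabp1*, *Fam163b*, *Cpne9*, *Ablim3*, *Cdh8*, *Bcl11b*, *Gm17322* and *Impg2* were not. *Bcl11b*, a zinc finger factor of granule neuron differentiation, was at 40.4 CPM in wild-type members against 2.67 in the other cells, at 54.7 against 8.76 in the nestin-Cre library and at 30.2 against 3.79 in the Emx1-Cre library. *Crabp1*, a retinoic acid binding protein, was at 16.4 (8.21 to 29.4), 71.3 (63.2 to 80.2) and 79.4 (69.2 to 90.8) CPM in members, and at 1.82, 9.47 and 9.35 in other cells. *Crabp1* was therefore higher in mutant members with intervals that did not overlap that of wild-type. *Cdh8*, a cadherin, was at 23.9, 43.1 and 40.8 CPM in members and at 2.04, 6.88 and 4.58 in the others.

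Markers checked the name of the cells. The summed level of the 27 immature neuron genes was 36597 CPM in wild-type members, 35144 in nestin-Cre members and 36647 in Emx1-Cre members, against 17821, 20206 and 19684 in the other cells. The 20 mature granule neuron genes summed to 1054, 1230 and 1085 CPM, with 4, 0 and 3 of them at 0, against 431, 581 and 512 in the other cells. Both the immature and the mature list were thus higher in members, though the mature list holds *Camk2b* and *Nrgn*, which chose the members. *Calb1*, the marker of mature granule neurons, had 3, 24 and 0 UMIs. Radial glia and astrocyte markers were at 2840, 3034 and 3156 CPM, all 10 detected in each library, led by *Fabp7*, *Apoe* and *Fabp7*, against 13691, 11126 and 12567 in the other cells. The 10 GABAergic markers summed to 83.7, 86.7 and 73.9 CPM, and 8, 2 and 4 of the 10 were at 0. The 12 pyramidal neuron markers, led by *Neurod6*, summed to 302 (262 to 347), 374 (355 to 394) and 395 (372 to 419) CPM with 2, 0 and 1 at 0, against 235, 297 and 284 in the other cells. The 6 Cajal-Retzius markers, led by *Reln*, summed to 4.48 (0.925 to 13.1), 30.0 (24.8 to 36.0) and 26.1 (20.4 to 32.9) CPM with 4, 0 and 1 at 0, against 24.97, 212 and 62.1. Members carried the genes of young neurons, and nearly all were without *Calb1*, but whether pyramidal neurons that hold *Prox1* are among them was not tested.

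Endothelial and red blood cell RNA was higher in Emx1-Cre members. The 6 endothelial markers summed to 13.5 CPM (6.15 to 25.5) in wild-type members with 2 of 6 at 0, to 10.5 (7.55 to 14.3) in nestin-Cre members and to 152 (138 to 167) in Emx1-Cre members, with none at 0 in either mutant library and *Cldn5* the most abundant in all 3. The 4 haemoglobin genes, led by *Hbb-bs*, summed to 170, 41.3 and 874 CPM. The 7 microglial markers, all detected, were at 142, 207 and 154 CPM, led by *C1qb*, *C1qa* and *C1qb*. Cells holding at least 2 markers of 1 other class (microglia, endothelium, mural and stromal cells, oligodendrocyte lineage, red blood cells, GABAergic neurons or Cajal-Retzius cells) made up 10.0% of wild-type, 7.45% of nestin-Cre and 8.86% of Emx1-Cre members. Without these cells the log2 ratio of Emx1-Cre over wild-type was -0.80 for *Cldn5* and -1.22 for *Hbb-bs*, but as the cells were chosen by such markers, lower values follow in part from the choice.

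The median member held 3330 UMIs (3224 to 3441) in the wild-type library, 3682 (3632 to 3766) in the nestin-Cre library and 3861 (3771 to 3947) in the Emx1-Cre library. The median of mutant members was higher, by a ratio of 1.11 (1.06 to 1.17) for nestin-Cre and 1.16 (1.10 to 1.22) for Emx1-Cre. The ranges in brackets divide opposite limits of the intervals of the medians. The rule favours deep cells in every library, so these ratios depend in part on the choice of members. Over all filtered cells, including those that are not neurons, the same ratios were 2.04 and 2.17. The median number of genes per member was 1692, 1821 and 1918, and 948, 944 and 954 after thinning to 1500 UMIs, which left out 9, 19 and 13 members. At equal depth the number of genes per member was nearly the same in the 3 libraries. Mitochondrial genes took 2.73%, 2.81% and 2.52% of member UMIs and ribosomal protein genes 14.5%, 14.1% and 13.5%.

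The question of the nestin-Cre comparison is what members lacking *Larp7* express. Of 6345 genes with at least 100 UMIs over both libraries, 735 were at least 1.5-fold higher than in wild-type (11.6%) and 439 at least 1.5-fold lower (6.92%). In the Emx1-Cre comparison with the same wild-type members, 399 of 5396 genes were higher (7.39%) and 173 lower (3.21%). Between the mutant libraries, 166 of 7633 genes were at least 1.5-fold higher in Emx1-Cre members (2.17%) and 134 lower (1.76%). Scaled by size factors, 138 were higher and 155 lower, so that the larger of the 2 depended on the scaling. A gene at the limit of 100 UMIs had an expected 14.7 UMIs in wild-type members beside nestin-Cre and 19.7 beside Emx1-Cre, but 58.9 in nestin-Cre members beside Emx1-Cre. Counting error alone thus puts more genes past 1.5-fold in the comparisons with wild-type, and the counts of the 3 comparisons cannot be ranked. Among the lists that follow, 7 hold 1 or 2 genes of the rule, and their values without those genes are given, chosen after seeing the data.

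Genes of the P-TEFb machinery differed most in *Hexim1*. *Hexim1*, the inhibitor that holds P-TEFb on 7SK, was at 8.97 CPM (3.29 to 19.5, 6 UMIs) in wild-type members, at 50.04 (43.3 to 57.6) in nestin-Cre members and at 41.6 (34.3 to 49.97) in Emx1-Cre members. That is 5.58-fold (2.52 to 15.4) and 4.63-fold (2.06 to 12.9) higher, log2 ratios of 2.48 and 2.21, which were 1.15 and 1.21 under the thinned rule. *Cdk9*, the kinase itself, was lower in both mutant libraries, at 74.7 (55.5 to 98.5), 35.2 (29.5 to 41.6) and 42.3 (34.9 to 50.8) CPM. *Aff4*, a scaffold of the super elongation complex, was at 108 (84.2 to 136), 193 (179 to 207) and 160 (145 to 175). The cyclin gene *Ccnt1* was at 98.7, 101.6 and 111 CPM, *Ccnt2* at 59.8, 47.7 and 50.4 and *Mepce*, the 7SK capping enzyme, at 29.9, 35.4 and 34.6. Of the 11 genes of this list, 7 had enough UMIs against nestin-Cre, with 2 higher and 1 lower by 1.5-fold and a median log2 ratio of 0.09, against 0.01 over all genes, which was 0.79 under the thinned rule and -0.13 with at least 4 markers. For Emx1-Cre 7 were described, 1 higher and 1 lower, with a median of 0.21 against 0.01. For comparison, 11.6% of all genes were higher and 6.92% lower against nestin-Cre, and 7.39% and 3.21% against Emx1-Cre. Among the 6 genes of the pausing factors NELF and DSIF, *Nelfcd* was lowest, with log2 ratios of -0.99 and -0.54, though under the thinned rule they were -0.06 and 0.40. The medians were -0.08 and -0.09, and 0.43 and 0.16 under that rule.

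*Hexim1* was higher in the mutant libraries in other classes of cells as well. It was at 22.3 (19.1 to 25.9), 57.0 (51.6 to 62.9) and 49.5 (45.0 to 54.4) CPM in *Eomes*-positive cells and at 27.9 (24.3 to 32.0), 55.7 (49.4 to 62.5) and 49.98 (44.4 to 56.0) in cells chosen as early neuroblasts by their markers, log2 ratios of 1.35 and 1.15 and of 0.99 and 0.84. In microglia *Hexim1* was at 32.2 (24.9 to 41.1), 60.7 (50.05 to 72.9) and 49.1 (37.5 to 63.2) CPM and in endothelium at 28.2 (18.9 to 40.6), 72.5 (45.4 to 110) and 40.8 (30.7 to 53.1). The higher level was thus not particular to members: nestin-Cre intervals lay above those of wild-type in all 4 classes and Emx1-Cre intervals in *Eomes*-positive cells and early neuroblasts, while in microglia and endothelium the latter overlapped. Wild-type cells with 2 markers, just outside the rule, had 22.02 CPM.

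Transcription factors of the granule lineage were mostly near or above wild-type. Of the 20, 18 were described against nestin-Cre, 2 at least 1.5-fold higher and none lower, with a median log2 ratio of 0.13. The same counts held for Emx1-Cre with a median of 0.12. Of all genes 11.6% were higher and 6.92% lower for nestin-Cre, and 7.39% and 3.21% for Emx1-Cre. Without *Prox1* the medians were 0.13 and 0.11. *Neurod1*, a driver of granule neuron differentiation, was at 1354 CPM (1268 to 1446) in wild-type members, 2170 (2124 to 2217) in nestin-Cre members and 2055 (2001 to 2109) in Emx1-Cre members. *Klf9*, a factor linked to late granule neuron maturation, was at 64.3 (46.5 to 86.6), 160 (148 to 173) and 125 (112 to 139) CPM. *Neurod2* was at 305, 443 and 439 CPM, log2 ratios of 0.54 and 0.52. These 3 factors were higher in both mutant libraries, with intervals clear of wild-type. *Zbtb20*, *Nfib*, *Nfix* and *Tcf4*, the most abundant factors of the list besides *Sox11* and *Sox4*, lay between -0.04 and 0.11 in log2 ratio in either comparison. *Bcl11b* had log2 ratios of 0.44 and -0.42, the latter 0.01 with at least 2 markers, and its wild-type interval of 26.6 to 58.7 CPM held both mutant levels.

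The immature neuron list as a whole was close to wild-type. All 27 genes were described, with 1 higher (*Neurod1*) and 1 lower (*Elavl4*) by 1.5-fold in each comparison. Higher genes made up 11.6% and 7.39% of all genes, and lower ones 6.92% and 3.21%. The medians of the list were -0.09 (nestin-Cre) and -0.02 (Emx1-Cre). *Calb2*, calretinin, was at 2008 CPM (1902 to 2118) in wild-type members, 1487 (1449 to 1526) in nestin-Cre members and 1667 (1619 to 1716) in Emx1-Cre members. *Igfbpl1*, a neuroblast gene, was at 2452 (2335 to 2573), 1862 (1820 to 1906) and 1938 (1886 to 1991). *Elavl4*, a neuronal RNA-binding protein, was the lowest of the list, at 58.3 (41.5 to 79.7), 29.0 (23.9 to 34.9) and 34.9 (28.3 to 42.7) CPM. *Dcx*, doublecortin, was at 706 (643 to 772), 763 (736 to 791) and 668 (638 to 700) CPM, so that both mutant intervals overlapped that of wild-type, while nestin-Cre members lay above Emx1-Cre members. The summed level of the 6 early neuroblast markers, led by *Igfbpl1* in every library, was 4815 CPM (4650 to 4985) in wild-type members, 3623 (3563 to 3683) in nestin-Cre members and 3952 (3877 to 4027) in Emx1-Cre members.

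Per cell, *Calb2* was read after thinning in 82.9% (80.4 to 85.3) of nestin-Cre and 85.5% (82.4 to 88.1) of Emx1-Cre members, against 87.8% (82.2 to 92.2) of wild-type members. Without thinning the shares were 94.2% of wild-type, 94.3% of nestin-Cre and 97.2% of Emx1-Cre members. Thinned microglia had *Calb2* in 20.9%, 15.3% and 15.2% of cells. *Dcx* was read after thinning in 71.3% of wild-type, 70.6% of nestin-Cre and 62.2% of Emx1-Cre members (90.5%, 92.5% and 90.2% unthinned) and in 16.4%, 10.8% and 12.4% of microglia. *Calb1* was read in 0 of 181 wild-type members, 0.105% of nestin-Cre members and 0 of 619 Emx1-Cre members after thinning, no more than the 0.221% in nestin-Cre microglia. Without thinning 1, 4 and 0 members held it, so that the 24 UMIs of nestin-Cre members lay in 4 cells.

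The mature granule neuron list summed to 1054 CPM (978 to 1135) in wild-type, 1230 (1195 to 1265) in nestin-Cre and 1085 (1046 to 1125) in Emx1-Cre members. Of its 20 genes 5 were described in each comparison, with medians of 0.29 and 0.15 and none past 1.5-fold. *Camk2b* and *Nrgn*, which chose the members, are 2 of these 5. Without them the sum was 715 CPM (652 to 782), 836 (808 to 865) and 772 (739 to 806), and the medians over 3 genes were 0.29 and 0.25. *Rbfox3*, the neuronal antigen NeuN, was at 302, 370 and 360 CPM and *Ppp3ca*, a calcineurin subunit, at 309, 345 and 310. *Nefm*, a neurofilament subunit, was at 4.48 CPM (0.925 to 13.1, 3 UMIs), 20.5 (16.3 to 25.6) and 21.7 (16.5 to 28.0), with a log2 ratio for nestin-Cre of 0.08 under the thinned rule. *Camk2a* went the other way, at 14.9 (7.17 to 27.5), 4.62 (2.74 to 7.30) and 3.68 (1.76 to 6.76), but in cells with 2000 to 6000 UMIs its log2 ratio for Emx1-Cre was 1.15. Outside the rule genes, the sum was thus higher in nestin-Cre members, while the interval of Emx1-Cre members overlapped that of wild-type.

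Of the 39 voltage-gated channel genes, which set excitability, 21 were described in nestin-Cre members, 10 of them at least 1.5-fold higher, where 11.6% of all genes were, and none lower, with a median log2 ratio of 0.51 (0.33 under the thinned rule) against 0.01 over all genes. In Emx1-Cre members 5 of 17 were higher (7.39% of all genes) and none lower, with a median of 0.18, which was 0.00 with at least 4 markers. The list had medians of 0.62 and 0.28 in *Eomes*-positive cells and of 0.80 and 0.58 in early neuroblasts, so that its higher level was not particular to members. *Cacna1d*, an L-type calcium channel, was at 12.0 CPM (5.16 to 23.6) in wild-type, 45.2 (38.7 to 52.4) in nestin-Cre and 29.8 (23.7 to 37.0) in Emx1-Cre members. *Scn3b*, a sodium channel subunit, was at 20.9, 47.2 and 41.2. Both were thus highest in nestin-Cre members, with Emx1-Cre members between. The summed level of the channel list was 966 CPM (893 to 1043), 1362 (1325 to 1399) and 1160 (1120 to 1201).

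Glutamate receptor genes differed gene by gene. Of the 36 glutamate receptor and auxiliary genes, 3 of 14 described were higher and none lower in nestin-Cre members (median 0.29). In Emx1-Cre members none of 10 was higher and 1 lower (median -0.13). The shares of all genes were 11.6% higher and 6.92% lower for nestin-Cre, and 7.39% and 3.21% for Emx1-Cre. Without *Grin2b* the medians were 0.32 and -0.07, and with at least 4 markers the former median was -0.02. *Gria2*, the AMPA receptor subunit that limits calcium entry, was the most abundant at 1159, 1082 and 1018 CPM, and *Cnih2*, an AMPA receptor auxiliary, was lower in mutants at 311 (270 to 356), 218 (203 to 233) and 220 (202 to 238). *Grin2a*, the NMDA receptor subunit that joins synapses later than *Grin2b*, was at 1.49 CPM (0.0378 to 8.33, 1 UMI), 21.3 (17.0 to 26.4) and 10.7 (7.14 to 15.3). *Gria4* was at 2.99 (0.362 to 10.8, 2 UMIs), 19.2 (15.1 to 24.1) and 18.0 (13.3 to 23.8). The intervals of *Gria4* lay above that of wild-type in both mutant libraries and that of *Grin2a* only in nestin-Cre members, with log2 ratios of *Grin2a* of 0.78 and 0.06 under the thinned rule.

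The 17 genes of GABA receptors and chloride transport had the lowest medians, -0.24 over 8 genes for nestin-Cre and -0.34 over 7 for Emx1-Cre. The sign depended on the rule, as the nestin-Cre median was 0.11 under the thinned rule, 0.03 with at least 2 markers and 0.09 with at least 4, and the Emx1-Cre median 0.04 with at least 2. *Gabra2* was at 133 (107 to 164), 76.5 (68.0 to 85.7) and 100 (88.5 to 113) CPM, and *Gphn*, the scaffold of inhibitory synapses, at 47.8, 30.8 and 32.7. Of the chloride transporters, *Slc12a2*, which loads immature neurons with chloride, was at 49.3, 31.3 and 39.0 CPM, and *Slc12a5*, which extrudes it in mature ones, had 2, 6 and 1 UMIs. *Gabra2*, *Gphn* and *Slc12a2* were lower by 1.5-fold in nestin-Cre members, 3 of the 8 genes described, and 1 gene was higher. Among all genes 6.92% were lower and 11.6% higher. For nestin-Cre only the interval of *Gabra2* lay below that of wild-type, and the log2 ratio of *Slc12a2* was 0.23 under the thinned rule. In Emx1-Cre members no gene of the list was lower by 1.5-fold, where 3.21% of all genes were. There the intervals of all 3 overlapped those of wild-type.

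Presynaptic genes had medians of 0.26 and 0.14, against 0.01 over all genes in both comparisons. Of 27, 22 were described in each, 2 of them higher and 1 lower by 1.5-fold, where 11.6% of all genes were higher and 6.92% lower for nestin-Cre and 7.39% and 3.21% for Emx1-Cre. *Slc17a6*, the vesicular glutamate transporter of immature neurons, was at 23.9 CPM (13.7 to 38.8), 72.9 (64.6 to 81.9) and 64.7 (55.5 to 75.03), and *Syt1*, the calcium sensor of release, at 31.4 (19.4 to 48.0), 80.6 (71.9 to 90.0) and 59.95 (51.1 to 69.9). Both were higher in both mutant libraries. Of the 27 postsynaptic scaffold genes, 2 of 17 were higher in nestin-Cre members (median 0.31), where 11.6% of all genes were. In Emx1-Cre members none of 14 was higher (median 0.12), where 7.39% of all genes were. Without *Camk2b* and *Nrgn* the medians were 0.31 and 0.19, but with at least 4 markers those of the whole list were -0.03 and -0.11, and under the thinned rule 0.36 and -0.37. *Shank2* was the highest of them in nestin-Cre members, at 8.97, 27.5 and 21.3 CPM.

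Axon guidance genes were higher in mutant members in 9 of 20 described for nestin-Cre and 3 of 16 for Emx1-Cre, where 11.6% and 7.39% of all genes were, with none lower and medians of 0.41 and 0.31. Without *Sema5a* the counts were 9 of 19 and 3 of 15 and the medians 0.53 and 0.34. The nestin-Cre median of the whole list was 0.17 under the thinned rule and 0.15 with at least 4 markers. *Sema6d*, a transmembrane semaphorin, was at 139 CPM (112 to 170), 250 (235 to 267) and 212 (195 to 230), and *Plxna2*, a semaphorin receptor, at 297 (258 to 342), 486 (464 to 508) and 376 (353 to 400). *Ephb2*, a receptor for ephrins, was at 68.8, 120 and 95.3 CPM, with a log2 ratio for Emx1-Cre of -0.06 under the thinned rule. In each, nestin-Cre members were highest and wild-type members lowest. Over the 34 neurite cytoskeleton genes the medians were 0.05 and 0.01. *Tuba1a*, the main tubulin of young neurons, was at 7944 CPM (7732 to 8161) in wild-type, 5503 (5429 to 5577) in nestin-Cre and 7372 (7270 to 7474) in Emx1-Cre members, while *Sptan1*, a spectrin, was at 202, 367 and 288. Of the neuronal RNA-binding genes 1 of 24 was higher and 1 lower in nestin-Cre members, where 11.6% and 6.92% of all genes were. In Emx1-Cre members none of 23 was higher and 1 lower, where 7.39% and 3.21% of all genes were. Their medians were 0.10 and 0.02, and 0.09 and 0.02 without *Rbfox1*.

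**Figure D2:**
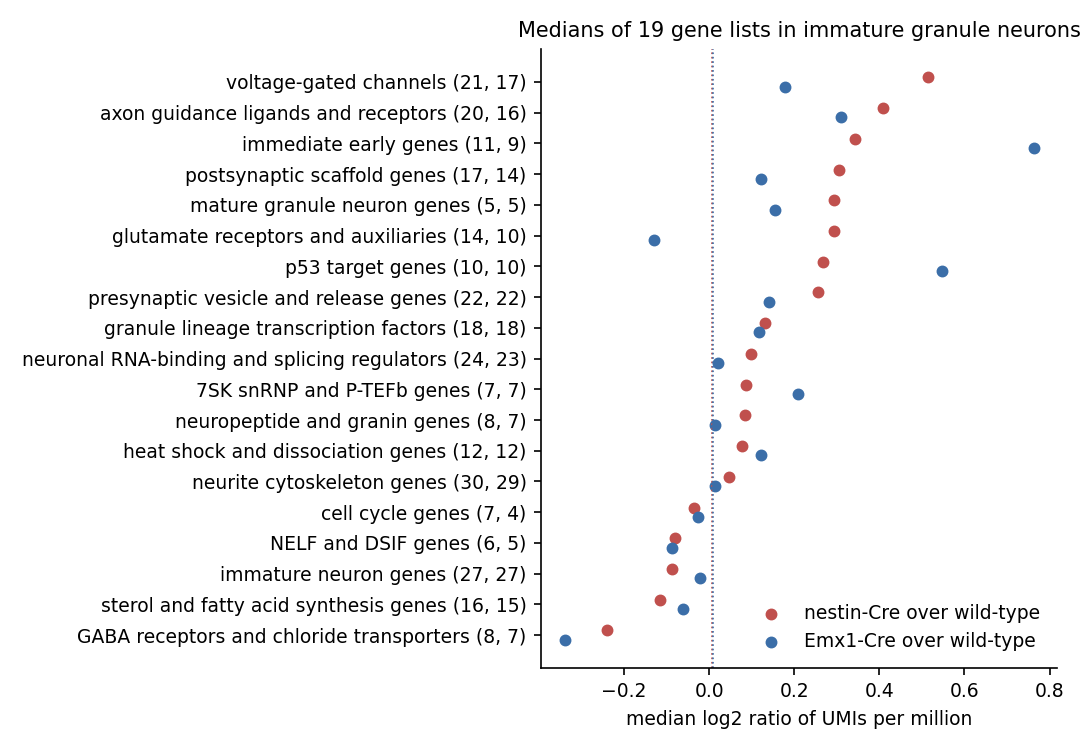
Median log2 ratio of each fixed gene list in member cells, mutant over wild-type, with the number of genes described for nestin-Cre and Emx1-Cre in brackets. Dotted lines mark the median of all genes described, and the lists are as fixed, with the rule genes they hold; voltage-gated channels are at 0.51 for nestin-Cre and 0.18 for Emx1-Cre, immediate early genes at 0.34 and 0.76, and GABA receptors and chloride transporters at -0.24 and -0.34.

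Immediate early genes, which neurons switch on within minutes of activity or of tissue handling, were higher in mutant members and highest in Emx1-Cre members. Of 21, 11 were described against nestin-Cre with 5 higher and none lower (median 0.34), where 11.6% of all genes were higher. Against Emx1-Cre 9 were described with 8 higher and none lower (median 0.76), where 7.39% of all genes were higher. *Fos* was at 446 CPM (396 to 499) in wild-type, 793 (765 to 822) in nestin-Cre and 965 (928 to 1002) in Emx1-Cre members, and *Junb* at 117 (92.2 to 146), 200 (187 to 215) and 253 (234 to 273). *Btg2*, an antiproliferative gene, was at 166 (137 to 200), 209 (195 to 224) and 317 (296 to 339), and *Jun* at 420 (372 to 472), 408 (388 to 429) and 675 (644 to 706). *Nr4a2*, an orphan nuclear receptor, was at 7.47 (2.43 to 17.4), 24.4 (19.7 to 29.8) and 26.5 (20.7 to 33.3). *Fos* and *Junb* were thus higher in both mutant libraries, *Jun* only in Emx1-Cre members.

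The summed level of the immediate early list was 2525 CPM (2406 to 2648), 3477 (3418 to 3536) and 4478 (4399 to 4559) in members, and it was higher in the other cells, at 4406, 5186 and 5271. In endothelium the list stood at 4975, 9438 and 5174 CPM and in microglia at 6709, 8621 and 7400. Endothelial and red blood cell markers were higher in Emx1-Cre members, as given above. Without the members that hold 2 markers of another class the medians were 0.46 and 0.77. Of the 15 genes of heat shock and dissociation, 12 were described and none lay past 1.5-fold in either comparison, with medians of 0.08 and 0.12. Whether handling of the tissue or RNA of other cells has a part in the immediate early genes was not tested.

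Promoters of immediate early genes are known for the cAMP response element, a palindrome whose core is bound by CREB, and 3 of them are shown. The intervals of *Fos* and *Nr4a2* lay above those of wild-type in both mutant libraries, though *Nr4a2* had under 100 UMIs for Emx1-Cre, and those of *Btg2* only in Emx1-Cre members. In RefSeq promoters of GRCm38.p6, from 250 bases before to 50 after the start of transcription, the letters TGACG on either strand were in 6837 of 32851 promoters (20.8%) and in 16 of 21 promoters (76.2%) of the list, of 14 of the 17 genes that the table holds. The full palindrome TGACGTCA, which contains the core on both strands, was in 588 promoters (1.79%) and in 2 of the 21, of 2 of the 17 genes. The promoters of *Fos* (chr12:85473640-85473939, plus strand), *Btg2* (chr1:134079106-134079405, minus strand) and *Nr4a2* (chr2:57123954-57124253, minus strand) follow 5′ to 3′, with each match to TGACG or its reverse CGTCA in capitals. A match is a description of the letters only.
Fos: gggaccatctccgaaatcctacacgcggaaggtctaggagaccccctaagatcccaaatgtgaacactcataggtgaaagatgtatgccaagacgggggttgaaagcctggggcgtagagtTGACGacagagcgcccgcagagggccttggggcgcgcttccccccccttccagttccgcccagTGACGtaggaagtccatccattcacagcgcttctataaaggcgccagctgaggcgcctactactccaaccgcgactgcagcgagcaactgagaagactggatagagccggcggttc
Btg2: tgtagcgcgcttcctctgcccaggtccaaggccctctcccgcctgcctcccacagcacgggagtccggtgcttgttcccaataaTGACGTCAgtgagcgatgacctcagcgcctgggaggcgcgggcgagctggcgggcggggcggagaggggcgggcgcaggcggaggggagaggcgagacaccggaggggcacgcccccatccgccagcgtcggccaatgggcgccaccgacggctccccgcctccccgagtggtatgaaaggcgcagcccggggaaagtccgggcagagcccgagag
Nr4a2: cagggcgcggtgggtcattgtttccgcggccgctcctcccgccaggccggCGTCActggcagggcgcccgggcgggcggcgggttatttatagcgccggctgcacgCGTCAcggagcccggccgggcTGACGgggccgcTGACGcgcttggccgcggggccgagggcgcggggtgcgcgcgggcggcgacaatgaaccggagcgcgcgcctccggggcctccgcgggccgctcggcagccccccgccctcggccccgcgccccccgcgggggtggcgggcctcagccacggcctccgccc
*Fos* holds 2 matches, *Btg2* 2 that overlap in 1 full palindrome, and *Nr4a2* 4.

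Genes activated by p53, a stress-responsive factor, were higher in 3 of 10 described for nestin-Cre and 5 of 10 for Emx1-Cre, where 11.6% and 7.39% of all genes were, none lower, with medians of 0.27 and 0.55. *Btg2*, the highest of them for Emx1-Cre with a log2 ratio of 0.93, is in the immediate early list as well. *Plk2*, a kinase also induced by activity, was at 64.3 CPM (46.5 to 86.6), 151 (139 to 164) and 120 (107 to 133), *Mdm2*, the ligase that degrades p53, at 38.9 (25.4 to 57.0), 70.8 (62.7 to 79.7) and 62.5 (53.5 to 72.7), and *Bbc3*, which encodes the apoptosis factor PUMA, at 50.8 (35.2 to 71.0), 83.1 (74.3 to 92.7) and 85.7 (75.05 to 97.4). All 3 were higher in both mutant libraries, though the interval of *Mdm2* in Emx1-Cre members overlapped that of wild-type. *Bax* was at 229, 198 and 221 CPM and *Cdkn1a* at 7.47, 13.3 and 13.2. With the rule applied to thinned cells the median for Emx1-Cre was -0.04, over fewer members. The median for nestin-Cre was 0.67 there, and 0.71 with at least 4 markers.

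Cell cycle genes were low in members of every library, with a summed level of 386 CPM (340 to 436), 425 (405 to 446) and 442 (418 to 468), against 2180, 1901 and 2124 in the other cells. Medians were -0.04 over 7 genes, 2 of them higher where 11.6% of all genes were, and -0.03 over 4. The nestin-Cre median was -0.995 under the thinned rule, -0.56 with at least 4 markers and -0.38 without cells holding markers of other classes, but 0.36 as a mean over cells. *Top2a*, a topoisomerase of dividing cells, was at 10.5 (4.21 to 21.6), 29.3 (24.1 to 35.1) and 29.1 (23.0 to 36.2) CPM, but under the thinned rule its log2 ratio for nestin-Cre was -1.02. Sterol and fatty acid synthesis genes had medians of -0.11 and -0.06, but 0.61 and 0.72 under the thinned rule. In nestin-Cre members 4 of 16 were lower and in Emx1-Cre members 1 of 15, where 6.92% and 3.21% of all genes were. *Fdps*, an enzyme of isoprenoid synthesis, was at 108 (84.2 to 136), 69.8 (61.7 to 78.6) and 68.8 (59.3 to 79.4).

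Of the 23 neuropeptide and granin genes, 8 were described for nestin-Cre with 2 higher (median 0.08). For Emx1-Cre 7 were described with 1 higher (median 0.01). None was lower in either comparison, and 11.6% and 7.39% of all genes were higher. *Gal*, which chose the members, is 1 of the higher genes in both. Without it 1 of 7 and none of 6 were higher, with medians of 0.07 and -0.00. *Scg2*, a granin of dense-core vesicles, was at 8.97 CPM (3.29 to 19.5), 27.2 (22.3 to 32.9) and 33.8 (27.3 to 41.5). *Vgf*, a secreted precursor induced by activity, had no UMI in wild-type members, where 3 UMIs stand for 4.48 CPM, and was at 15.9 (12.2 to 20.4) and 14.0 (9.89 to 19.2) in the mutants, at least 3.55-fold and at least 3.12-fold higher. *Bdnf* was at 8.97 (3.29 to 19.5), 20.5 (16.3 to 25.6) and 19.1 (14.3 to 25.1) CPM. The intervals of *Scg2* and *Vgf* lay above those of wild-type in both mutant libraries, whereas those of *Bdnf* overlapped. Under the thinned rule the log2 ratio of *Scg2* for nestin-Cre was 0.39 and that of *Bdnf* for Emx1-Cre 0.26.

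The largest differences that went the same way in both mutant libraries were named by a fixed rule. The 10 genes highest in the mutant libraries were *Gk5*, *Pdzrn4*, *Creb3l1*, *Ier3*, *Snhg11*, *Abcg1*, *Grin2a*, *Usp25*, *Gria4* and *Pknox1*, each with 1 to 3 UMIs in wild-type members. *Snhg11*, a noncoding host of small nucleolar RNAs, was at 4.48 CPM (0.925 to 13.1), 41.6 (35.4 to 48.5) and 34.9 (28.3 to 42.7), and *Abcg1*, a sterol transporter, at 2.99 (0.362 to 10.8), 32.8 (27.4 to 39.1) and 22.4 (17.2 to 28.8). *Ier3*, an early response gene, was at 1.49 (0.0378 to 8.33), 12.1 (8.86 to 16.0) and 23.2 (17.8 to 29.6), with a log2 ratio for nestin-Cre of -0.39 under the thinned rule. Their ratios rest on few wild-type UMIs and depended on the choice of members. The lowest log2 ratio of each of the 10 under an alternative lay between -0.39 (*Ier3*) and 1.79 (*Snhg11*) for nestin-Cre and between 0.04 (*Creb3l1*) and 1.19 (*Pdzrn4*) for Emx1-Cre. With at least 4 markers *Gk5* was at 0.30 for nestin-Cre and *Usp25* at 0.29 for Emx1-Cre, and under the thinned rule *Abcg1* was at 0.68 for nestin-Cre. The log2 ratio of *Pknox1*, the last of the 10, had an interval of 0.57 to 5.56 for nestin-Cre.

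*Larp7* itself was the lowest in the mutant libraries by the same rule, which also named *B9d1*, *Chid1*, *Bop1*, *Hist1h2bc*, *Pusl1*, *Ppp1r35*, *1500015O10Rik* and *Nudt16*. *Hist1h2bc*, a histone H2B gene, was at 112 CPM (88.2 to 141) in wild-type, 44.9 (38.5 to 52.1) in nestin-Cre and 42.3 (34.9 to 50.8) in Emx1-Cre members. *Bop1*, a ribosome biogenesis factor, was at 41.9 (27.8 to 60.5), 16.7 (12.9 to 21.3) and 15.8 (11.4 to 21.3). *Pusl1*, a pseudouridine synthase gene, was at 61.3 (44.0 to 83.2), 26.9 (22.04 to 32.6) and 26.8 (21.0 to 33.8). These genes were lower in both mutant libraries with intervals clear of wild-type. *Hist1h2bc* was also lower in *Eomes*-positive cells, with log2 ratios of -1.54 and -1.46, and in early neuroblasts, -1.62 and -1.77. In microglia the ratios were -1.01 and -0.29, and in endothelium, where the intervals of *Larp7* overlapped, -1.27 and -0.67, at 95.5 (77.5 to 116), 39.5 (20.4 to 69.1) and 60.1 (47.7 to 74.7) CPM.

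**Figure D3:**
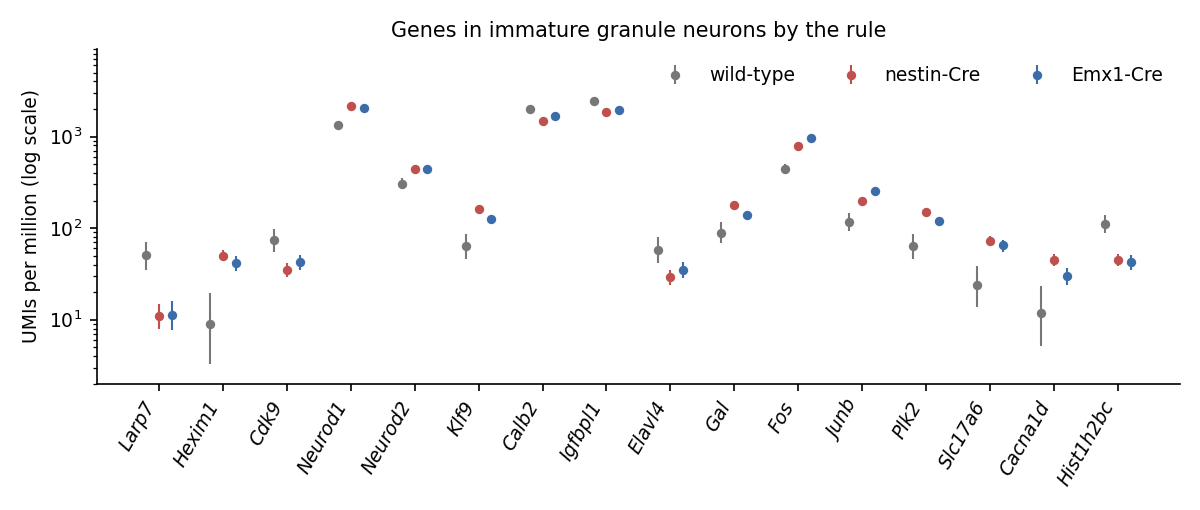
Level of 16 genes in member cells of the 3 libraries, in CPM on a log scale. Points are 1 library each and lines are exact 95% Poisson intervals for counting error; *Larp7*, *Cdk9*, *Calb2*, *Igfbpl1*, *Elavl4* and *Hist1h2bc* are lower in both mutant libraries than in wild-type and the other 10 are higher.

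Long genes were higher in mutant members. Gene spans from GENCODE on GRCm38 were found for 7916 of 7926 genes. In nestin-Cre members the median log2 ratio was -0.15 over 1523 genes under 10 kb, -0.06 over 2003 of 10 to 30 kb, 0.10 over 1888 of 30 to 100 kb, 0.20 over 710 of 100 to 300 kb and 0.32 over 213 genes above 300 kb. The median thus went up with span at every step. In Emx1-Cre members it was -0.08, -0.00, 0.07, 0.09 and 0.11 over 1378, 1689, 1568, 587 and 168 genes, a smaller range, and under the thinned rule, chosen after seeing the data, -0.05, -0.06, 0.00, -0.03 and 0.05, which did not keep that order. Of the genes above 300 kb, 31.0% were at least 1.5-fold higher in nestin-Cre members and 0.469% lower, against 6.11% and 11.4% of those under 10 kb. Many channel and guidance genes are long, *Cacna1d* at 452 kb among them, so that span and the role of a list cannot be told apart in these medians.

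The same order was seen in *Eomes*-positive cells, early neuroblasts and endothelium, but not in microglia. For nestin-Cre, medians under 10 kb and above 300 kb were -0.13 and 0.35 in *Eomes*-positive cells and -0.12 and 0.39 in early neuroblasts. In endothelium, which arises outside the neural lineage, they were -0.14 (763 genes) and 0.48 (38 genes), and in microglia -0.17 (1514 genes) and -0.08 (101 genes), with 0.09 from 100 to 300 kb. A higher level of long genes in the mutant libraries was therefore measured in endothelium as well. Endothelium also held neuronal RNA, with the immature neuron genes at 4374, 5223 and 7512 CPM and *Neurod1* at 75.007, 349 and 206, whereas in microglia these genes were at 10307, 7139 and 8111 CPM. Whether neuronal RNA in these classes, or the difference in depth between the libraries, has a part in the order by span was not tested.

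**Figure D4:**
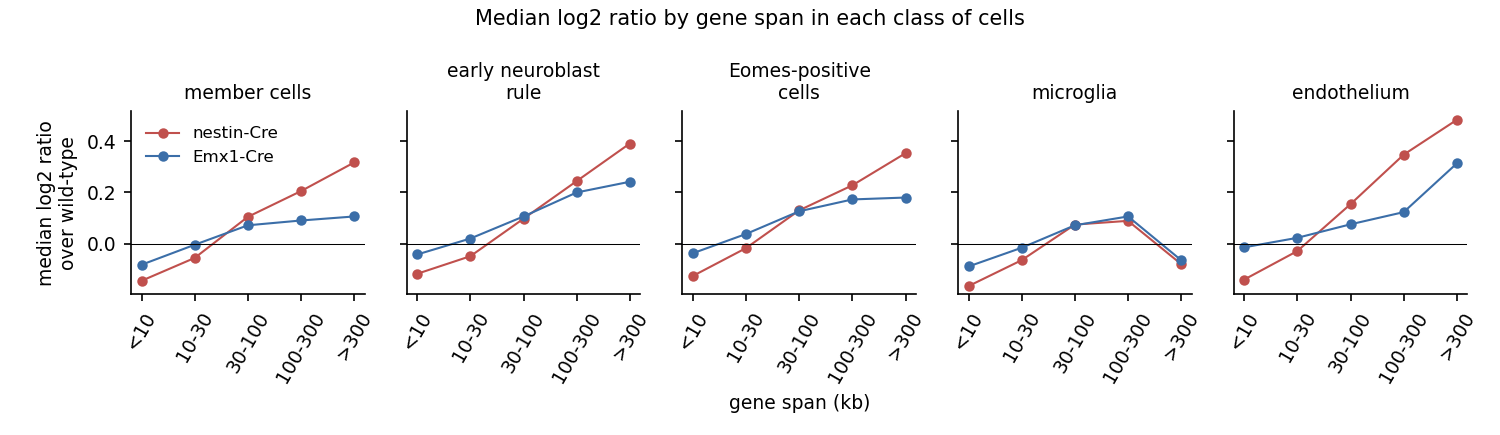
Median log2 ratio over wild-type of genes grouped by span, in kb, in members and in 4 other classes of cells of the same libraries. Each point is the median of 1 comparison between 2 libraries; in members the nestin-Cre line runs from -0.15 to 0.32 and the Emx1-Cre line from -0.08 to 0.11, and in microglia both lines end below 0.

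The classes before members in the lineage give values to set beside theirs. The immediate early list had medians of 0.34 and 0.76 in members, -0.16 and 0.13 in *Eomes*-positive cells and 0.15 and 0.32 in early neuroblasts, and 0.48 and 0.11 in microglia and 0.88 and 0.06 in endothelium. Higher immediate early genes were thus not particular to members. *Calb2* was lower in mutant members, and in *Eomes*-positive cells its log2 ratios were 0.13 and 0.11. In early neuroblasts it was at 945 CPM (923 to 967), 1192 (1163 to 1223) and 1175 (1147 to 1203). *Calb2* is itself among the markers of which at least 2 chose the early neuroblasts. Its level there is therefore a description only and no contrast with members. *Neurod1* was higher in the mutant libraries in all 3 classes, with log2 ratios of 0.77 and 0.52 in *Eomes*-positive cells and 0.93 and 0.92 in early neuroblasts. Its ratios were 0.19 and 0.44 in microglia and 2.22 and 1.46 in endothelium, so that it was not particular to the lineage. *Klf9* stood at 0.47 and 0.38 in *Eomes*-positive cells and 0.54 and 0.40 in early neuroblasts, against 1.32 and 0.96 in members. Early neuroblasts by their markers were shallow in the wild-type library, with a median of 1541 UMIs against 3307.5 and 3707. Their cell cycle list had medians of -0.72 and -0.67, so that the class was not alike in the libraries. No test of a difference between classes was possible.

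Members of the 2 mutant libraries were also compared with each other. Immediate early genes were higher in Emx1-Cre than in nestin-Cre members, 4 of 15 at least 1.5-fold and 1 lower. Their median was 0.34 (0.04 under the thinned rule). Voltage-gated channels were lower, 3 of 23 with none higher and a median of -0.21. In this comparison 2.17% of all genes were higher and 1.76% lower. *Gabra5*, a GABA receptor subunit, was at 17.7 CPM (13.8 to 22.4) in nestin-Cre and 4.41 (2.28 to 7.71) in Emx1-Cre members, against 7.47 (2.43 to 17.4) in wild-type. *Bcl11b* and *Grin2a* were lower in Emx1-Cre members as well, by log2 ratios of -0.86 and -0.998. Genes above 300 kb had a median of -0.21 in this comparison and genes under 10 kb one of 0.08.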

How the data were processed

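The authors deposited filtered matrices of UMI counts made with Cell Ranger (4.0.0 per the file headers) and mm10, per their processing notes. From these counts, cells that held over 500 genes and had a mitochondrial part under 15% of UMIs were kept, and the rule was applied. UMIs were summed over member cells and scaled to 1000000 (CPM). Genes with at least 100 UMIs over the 2 libraries compared were described, and 1.5-fold was the limit for higher or lower. No test was made, as each genotype has 1 library. A ratio with a count of 0 used a floor of 3 UMIs.

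The members and lists were chosen with earlier results of these data known. The named genes are the 10 largest differences in each direction shared by both mutant libraries, the 15 genes most enriched in members, the genes of the rule, *Larp7* and the genes of the fixed lists. Some genes that this rule names are not reported here. Markers of other cell classes were named after their values were seen. Genes singled out within lists were picked after their values were seen, as were the gene span groups and the other alternatives on single genes. Scrublet in scanpy called 3, 226 and 400 doublets, 0, 47 and 50 of them members. They were kept, and leaving out the highest 6% of scores was 1 of the alternatives. The thinned rule chose cells on counts thinned to 1500 UMIs and then summed their unthinned UMIs. Python 3.11.15, numpy 2.4.6, scipy 1.17.1, pandas 2.3.3, scanpy 1.11.5, anndata 0.12.19 and matplotlib 3.10.9 were used, and the scripts were tested on simulated data. The P14, neurosphere, ATAC and CUT&Tag data of the series were not analysed.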

Additional observations from a re-analysis of the deposited data

How the results depend on the processing

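No paired analysis was possible because each genotype has 1 library, and for the same reason leaving out a library was not possible. The order of the 3 member shares (nestin-Cre, Emx1-Cre, wild-type) was the same under every alternative. For wild-type, nestin-Cre and Emx1-Cre the shares were 0.741%, 5.70% and 2.54% with the rule on thinned cells, 3.52%, 20.0% and 14.6% with at least 2 markers, 0.727%, 9.65% and 5.24% with at least 4, and 3.70%, 17.0% and 11.1% in cells with 2000 to 6000 UMIs. In cells with more than 1000 genes they were 3.10% and 16.0% for wild-type and nestin-Cre, and without cells holding markers of other classes 13.4% and 8.82% for nestin-Cre and Emx1-Cre. Genes higher and lower numbered 293 and 169 (nestin-Cre over wild-type) and 59 and 41 (Emx1-Cre over wild-type) under the thinned rule, with 72 higher in Emx1-Cre over nestin-Cre. The part of the differing genes that was higher moved there from 69.8% to 59.0% for Emx1-Cre over wild-type and from 55.3% to 40.9% for Emx1-Cre over nestin-Cre. With at least 4 markers, 244 and 106 differed for Emx1-Cre over wild-type. At 2-fold the 3 comparisons gave 215 and 54, 78 and 12, and 17 and 15. With at least 50 UMIs they gave 1279 and 767, 863 and 370, and 361 and 302, and with at least 400 UMIs 100 and 54, 29 and 12, and 19 and 18, as fewer genes pass a higher limit. Of 531 list medians under alternatives, 512 stayed within their interval, but 63 had the other sign. Of 135 medians by gene span, chosen after seeing the data, 103 stayed within their interval, 32 moved and 1 had the other sign. These intervals reflect the spread among the genes of a group and not counting error. For the shortest lists they are the full range of the genes, so staying within them says little about stability.

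Single genes were run under alternatives chosen after seeing the data. Of 2700 values, 2414 stayed within their interval and 193 had the other sign. Of these, 19 belong to genes at least 1.5-fold apart, given here as log2 ratios, and the cause was not tested. Under the thinned rule they were *Ier3* -0.39, *Slc12a2* 0.23 and *Top2a* -1.02 (nestin-Cre over wild-type), *Hbb-bs* -1.93 and *Ppp1r35* 0.0564 (Emx1-Cre over wild-type), and *Cldn5* -1.67 and *Hbb-bs* -0.28 (Emx1-Cre over nestin-Cre). With at least 4 markers they were *Cldn5* 0.46 (nestin-Cre over wild-type) and *Top2a* -0.61 (Emx1-Cre over wild-type). In cells with 2000 to 6000 UMIs they were *Apoe* -0.16, *C1qa* -0.76 and *Cldn5* 0.15 (nestin-Cre over wild-type) and *Camk2a* 1.15 and *Gabra5* 0.61 (Emx1-Cre over wild-type). Without cells holding markers of other classes they were *Cdkn1a* -0.0176, *Cldn5* -0.80 and *Hbb-bs* -1.22 (Emx1-Cre over wild-type), and as a mean over cells *Slc12a5* 0.85 (nestin-Cre over wild-type) and *Gabra5* 0.0198 (Emx1-Cre over wild-type). Values of the other cell classes were not recomputed. The 668911 wild-type member UMIs limit what both comparisons can show for genes of low level.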

Other observations

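Genes of the sex chromosomes, chosen after their values were seen, differed between the members of the 3 libraries. *Xist*, expressed from the inactive X chromosome, was at 1470 CPM (1379 to 1564) in wild-type, 1478 (1440 to 1517) in nestin-Cre and 794 (761 to 828) in Emx1-Cre members. *Ddx3y*, on the Y chromosome, was at 7.47 (2.43 to 17.4), 27.5 (22.5 to 33.2) and 35.3 (28.6 to 43.1). *Eif2s3y* was at 10.5, 17.2 and 25.7 CPM. Each library thus held RNA of both sexes, in different proportions.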
